A study of Mus musculus with 6 samples.

Results

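Histone deacetylases take acetyl groups off lysines of histones and other proteins. The 10 genes described here are Hdac1, Hdac2, Hdac3 and Hdac8 of class I, Hdac4, Hdac5, Hdac7 and Hdac9 of class IIa, Hdac6 of class IIb and the sirtuin Sirt1 of class III, out of 18194 genes measured. They were measured by every probe set that the platform annotation assigns to one of these genes and to no other, which gave 9 of 20393 such probe sets on MOE430A and 8 of 14674 on MOE430B. The cells were 10T1/2, a line of mouse embryonic fibroblasts, grown in DMEM with 10% FBS and harvested at 80% confluency, with no treatment named. There were 3 samples of total RNA (1, 4 and 5), with 1 array of each of the 2 designs per sample, so there was 1 group and no contrast between conditions. Whether separate dishes were grown for each sample is not stated, and the spread may thus be technical.

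Class I enzymes are nuclear and work inside the Sin3, NuRD, CoREST and NCoR/SMRT corepressor complexes, where they silence genes by deacetylating histones. Class IIa enzymes have little deacetylase activity of their own. They bind MEF2 transcription factors on muscle genes and leave the nucleus when kinases phosphorylate them and 14-3-3 proteins hold them in the cytoplasm. Hdac6 is a cytoplasmic deacetylase of tubulin, and Sirt1 uses NAD as a cosubstrate. In 10T1/2 cells made to express MyoD, class IIa enzymes are known to block conversion to muscle.

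A probe set was taken as detected when its signal lay above a background limit on 3 of 3 arrays. The limit of an array was the 95th percentile of the signals of genes restricted to distant tissues, such as liver, retina and pituitary. It was 1328, 1338 and 968 in samples 1, 4 and 5 on MOE430A, from 144 probe sets, and 4316, 3676 and 4968 on MOE430B, from 11 probe sets only. Median signals were 527 to 581 on MOE430A and 856 to 921 on MOE430B. Of the fibroblast markers 9 of 10 were detected, among them the collagen genes Col1a1 and Col1a2. Leukocyte, endothelial, skeletal muscle and neuron markers had 0 of 6, 0 of 5, 0 of 6 and 0 of 5 detected. Epithelial markers had 1 of 5, namely Epcam, from 1 of its 2 probe sets, at 31382, 139544 and 29693. That probe set, on MOE430B, has a name ending in _x_at and can match several transcripts. The ratio of the 3′ to the 5′ probe set of Gapdh was 24.7, 15.03 and 10.6 in samples 1, 4 and 5 on MOE430A and 23.4, 14.0 and 11.5 on MOE430B. That of beta-actin was 17.5, 9.57 and 8.68 on MOE430A and 20.2, 8.23 and 10.8 on MOE430B. Sample 1 thus had the highest ratios on both designs. On every array the 3′ probe sets read at least 8.23 times the 5′ ones, a strong 3′ bias. The part of this bias in probe sets not detected, or in disagreeing probe sets of a gene, was not tested.

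Of the 10 members 5 were detected, Hdac1, Hdac2, Hdac3, Hdac5 and Hdac7, against 24.3% of all measured genes. By class these were 3 of 4 in class I and 2 of 4 in class IIa, while the class IIb gene Hdac6 and the class III gene Sirt1 were not detected. By probe set, 4 of 9 were detected on MOE430A, against 23.0% of all probe sets naming 1 gene there, and 2 of 8 on MOE430B, against 7.65%. Hdac8 and Hdac4 were read on MOE430B only, so the counts by class and by gene are not matched for design. Of the background probe sets themselves 4 of 144 on MOE430A and 1 of 11 on MOE430B, that of Apoh, met the same rule. With markers of other cell types added to the background list, a choice made after seeing the data, MOE430B had 1 of 8 member probe sets detected. Detection of a gene depends on how many probe sets it has. Members with 1 probe set were detected in 2 of 5 cases, against 13.6% of all such genes. For 2 probe sets it was 2 of 3 members, against 27.5%, and for 3 probe sets 1 of 2 members, against 37.6%. A probe set on both designs was counted on each, so Hdac5, with 1415743_at alone, counts here with 2. A gene below the limit was not shown to be absent. In RNA of whole cultures, fewer expressing cells and less RNA per cell cannot be told apart.

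**Figure D1:**
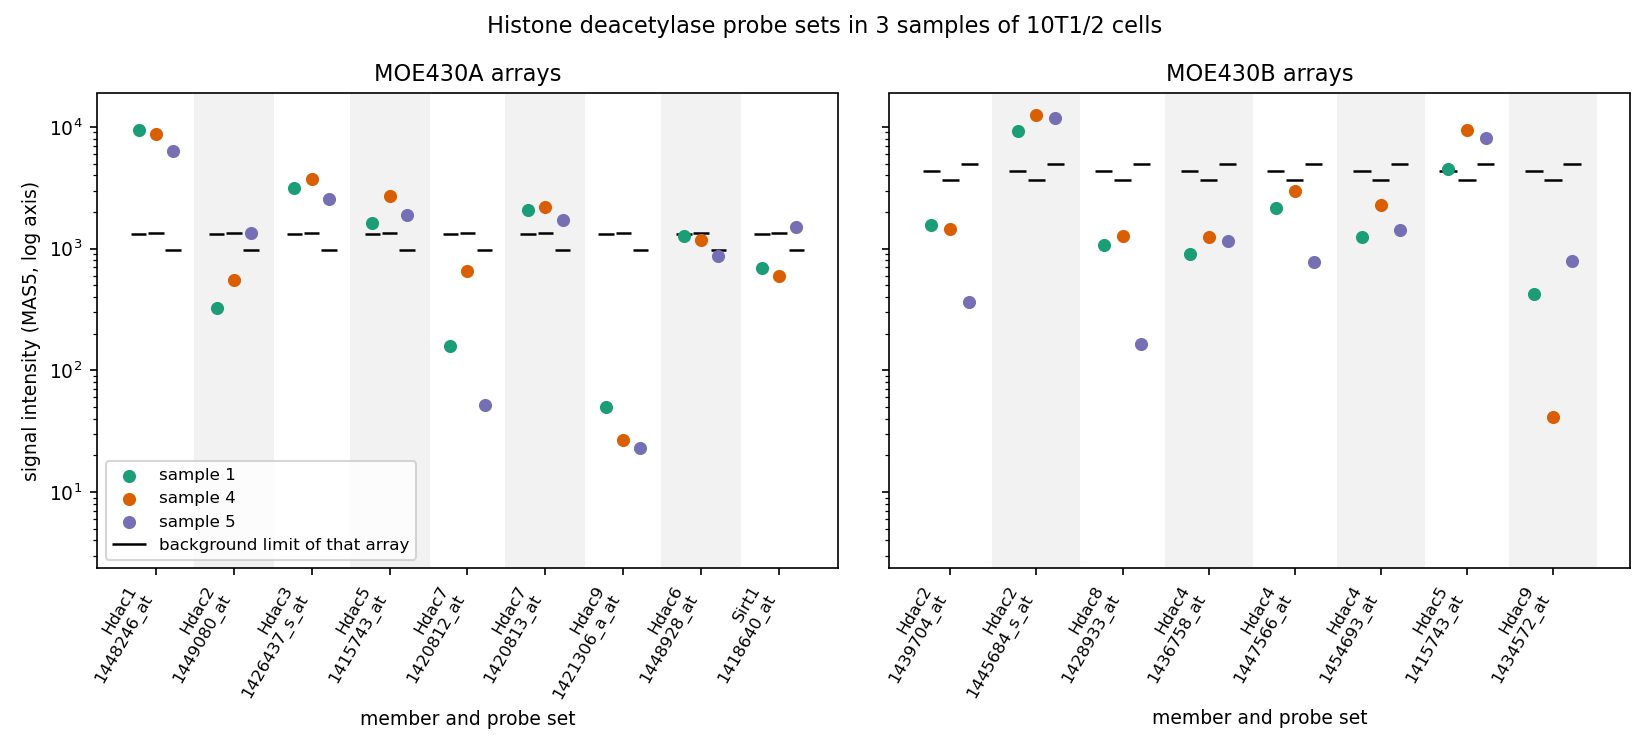
Signal intensity (log axis) of every histone deacetylase probe set in samples 1, 4 and 5 (coloured points), with MOE430A at the left and MOE430B at the right. Black bars give the background limit of the same array. Of the 17 probe sets, that of Hdac5 being counted on each design, 6 have all 3 points above their bars. Heights are not comparable between probe sets.

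The promoters are shown first because the members differ widely in their CG content, a feature that played no part in choosing them. RefSeq promoters of assembly GRCm38.p6, which reach from 250 bases before to 50 bases after a gene's start, were matched by symbol for 8 members, with 12 promoters in all. Those for Hdac1 and Hdac3 were not matched. The windows of Hdac2 and Hdac5, which were detected, and of Sirt1, Hdac8 and Hdac9, which were not, are printed 5′ to 3′ on the strand of the gene, with every CG dinucleotide in capitals.
Hdac2, chr10:36974294-36974593, plus strand: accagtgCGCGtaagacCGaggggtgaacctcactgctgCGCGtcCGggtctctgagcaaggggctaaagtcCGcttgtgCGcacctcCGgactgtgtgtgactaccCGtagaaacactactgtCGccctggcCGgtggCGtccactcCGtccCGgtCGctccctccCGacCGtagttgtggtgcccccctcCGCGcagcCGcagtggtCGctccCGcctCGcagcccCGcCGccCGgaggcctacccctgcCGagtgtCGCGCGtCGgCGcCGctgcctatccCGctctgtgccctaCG
Hdac5, chr11:102230123-102230422, minus strand: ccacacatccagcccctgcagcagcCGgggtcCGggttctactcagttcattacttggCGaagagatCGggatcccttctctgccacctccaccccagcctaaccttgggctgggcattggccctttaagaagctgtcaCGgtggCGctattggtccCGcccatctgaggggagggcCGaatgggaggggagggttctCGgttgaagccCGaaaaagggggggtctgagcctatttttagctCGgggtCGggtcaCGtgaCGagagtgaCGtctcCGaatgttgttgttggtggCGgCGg
Sirt1, chr10:63338986-63339285, minus strand: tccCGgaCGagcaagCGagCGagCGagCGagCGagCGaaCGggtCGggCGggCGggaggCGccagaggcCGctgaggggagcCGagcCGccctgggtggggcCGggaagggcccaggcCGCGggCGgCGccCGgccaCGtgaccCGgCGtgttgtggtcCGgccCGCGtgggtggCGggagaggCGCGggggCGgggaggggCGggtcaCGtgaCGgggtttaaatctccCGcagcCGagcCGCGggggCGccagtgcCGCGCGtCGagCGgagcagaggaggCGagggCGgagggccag
Hdac8, chrX:102505109-102505408, minus strand: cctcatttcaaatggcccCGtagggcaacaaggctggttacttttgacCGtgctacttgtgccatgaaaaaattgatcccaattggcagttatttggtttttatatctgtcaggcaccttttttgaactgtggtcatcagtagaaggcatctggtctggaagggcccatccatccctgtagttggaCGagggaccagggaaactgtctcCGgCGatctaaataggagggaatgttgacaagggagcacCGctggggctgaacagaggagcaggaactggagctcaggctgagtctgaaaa
Hdac9, chr12:34917046-34917345, minus strand: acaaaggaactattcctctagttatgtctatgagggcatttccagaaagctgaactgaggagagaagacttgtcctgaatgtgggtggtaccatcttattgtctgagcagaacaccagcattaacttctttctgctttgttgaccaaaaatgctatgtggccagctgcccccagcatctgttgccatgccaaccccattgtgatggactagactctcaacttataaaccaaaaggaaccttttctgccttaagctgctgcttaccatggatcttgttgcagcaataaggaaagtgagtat

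The Hdac2 window held 36 CG dinucleotides, more than 93.8% of all 32851 promoters in the table, and the Hdac5 window 18, more than 70.3%. The 4 windows of Hdac7 held 5, 31, 35 and 6. Among members not detected, Sirt1 held 47, more than 98.6% of all promoters, Hdac4 held 32 and Hdac6 held 20. Hdac8 held 6, and the windows of Hdac9 held 0 and 3. The median over all promoters was 7, with quartiles of 3 and 20. Thus 6 of the 8 members had at least 1 window with 15 CG or more, a value set after the counts were seen, and 3 of these 6 were detected. Neither of the 2 members under that value, Hdac8 and Hdac9, was detected. Over all 14453 measured genes with a promoter, 35.5% of the 8534 at or over it were detected, against 10.3% of the 5919 under it, and the members' counts, too few for more than a description, run the same way.

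**Figure D2:**
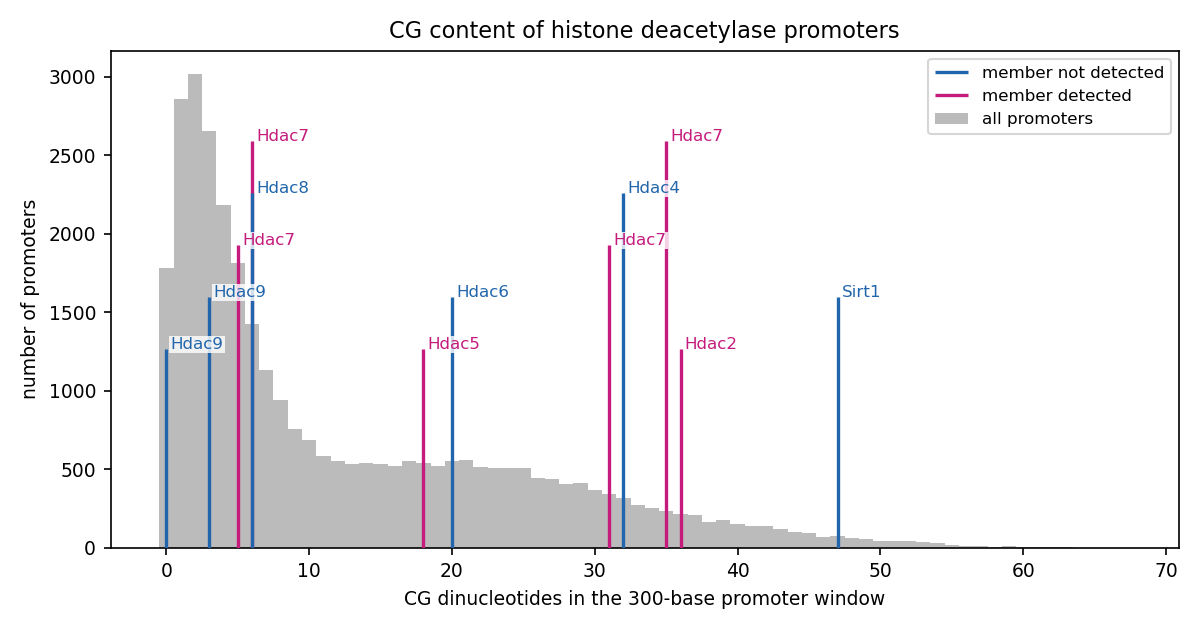
Number of promoters (vertical axis) by the number of CG dinucleotides in the 300-base window (horizontal axis), over all promoters in grey, with a line for each member promoter coloured by whether the gene was detected; line heights only separate the names. The windows of Hdac8 and Hdac9 hold 6 or fewer, and those of Hdac2, Hdac4 and Sirt1 hold 32 or more.

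Short motifs were counted on both strands of the same windows. The GC box GGGCGG, the core of the sequence bound by Sp1, occurred 7 times in Sirt1, 5 times each in Hdac4 and Hdac6 and once each in Hdac2, Hdac5 and 1 window of Hdac7. It was found in 35.7% of all promoters. The CCAAT box occurred 2 times each in Hdac4, Hdac5, Hdac6 and Hdac8, against at least once in 37.4% of all promoters. In Hdac8 the 2 matches overlap on opposite strands, in the single stretch CCAATTGG. TATAAA was found once in Hdac8 and once in the printed window of Hdac9, and in 13.6% of all promoters. CACGTG, the E-box of Myc and its relatives, was found 2 times in Sirt1 and once in Hdac5, and in 7.15% of all promoters. GGGCGG holds a CG, so its count is not separate from the CG content, and none of these matches shows that a factor binds.

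Hdac1, the founding class I enzyme and a catalytic subunit of the Sin3, NuRD and CoREST complexes, was detected. Its probe set 1448246_at read 9358, 8780.4 and 6331 in samples 1, 4 and 5, which was 7.05, 6.56 and 6.54 times the limit of the same array. All 144 background probe sets lay below it on each array. The mean was 8157 ± 1607 (SD, n = 3). Samples 1 and 4 were close and sample 5 was the lowest, with the highest signal 1.48 times the lowest.

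Hdac2, the close paralogue that occupies the same complexes as Hdac1, had 3 probe sets, and they disagreed. On MOE430B, 1445684_s_at read 9239, 12500.1 and 11836 in samples 1, 4 and 5, or 2.14, 3.40 and 2.38 times the limit, with a mean of 11192 ± 1723 (SD, n = 3). Sample 1 was the lowest of the 3 there, and the highest signal was 1.35 times the lowest. This probe set has a name ending in _s_at, an ending given to sets that may match more than 1 transcript. The detection of Hdac2 rests on it.

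The other Hdac2 probe sets were not detected. On MOE430A, 1449080_at read 324, 551 and 1335 in samples 1, 4 and 5, and so lay above the limit in sample 5 only. On MOE430B, 1439704_at read 1549.6, 1447 and 362, below the limit in every sample. Sample 5 was thus the highest on the first of these and the lowest on the second, and no direction between samples can be read for Hdac2 from them.

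Hdac3, the enzyme of the NCoR/SMRT complex, was measured on MOE430A by 1426437_s_at, which can also match several transcripts. It read 3131, 3710.4 and 2552 in samples 1, 4 and 5, with a mean of 3131 ± 579 (SD, n = 3). The signal was 2.36, 2.77 and 2.64 times the limit. Sample 4 was the highest and sample 5 the lowest, 1.45 times apart.

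Hdac8, the class I member that acts outside these complexes and deacetylates the cohesin subunit Smc3, was not detected. Its probe set 1428933_at on MOE430B read 1065, 1270.1 and 164 in samples 1, 4 and 5, at most 0.346 times the limit. All 3 readings lay below the limit and have no order.

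Hdac5 represents class IIa with the same probe set, 1415743_at, on both designs, so the same RNA was read on 2 arrays per sample. On MOE430A it read 1613, 2695 and 1898 in samples 1, 4 and 5, with a mean of 2069 ± 560.5 (SD, n = 3). On MOE430B it read 4519.9, 9475 and 8087, with a mean of 7360.5 ± 2556 (SD, n = 3). Sample 1 was the lowest and sample 4 the highest on both designs, and all 6 readings lay above the limit. The margin was thin in sample 1, at 1.22 times the limit on MOE430A and 1.05 times on MOE430B.

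The highest Hdac5 signal was 1.67 times the lowest on MOE430A and 2.10 times on MOE430B. Sample 1 stood at -0.49 on MOE430A and -0.95 on MOE430B, as log2 signal minus the mean of samples 4 and 5. Over the 100 probe sets that both designs carry, controls left out, the median was -0.11 and -0.42, so sample 1 also read lower over the common probe sets as a whole. Of those 100, 45 had the same highest and the same lowest sample on both designs, as Hdac5 did. The ratio of the MOE430B to the MOE430A signal of Hdac5 was 2.80, 3.52 and 4.26 in samples 1, 4 and 5, beside medians of 3.35, 3.89 and 4.07 over the 100. Sample 1 also had the highest 3′ to 5′ ratios given above, and the 6 detected proliferation genes, Cdk1 among them, were all lower in sample 1, at a median of -1.93. Over all 10 listed proliferation genes the summed signal was 18512, 89604 and 100665 in samples 1, 4 and 5. This sum mixes the designs, as it adds Mcm5 from MOE430B, at 6466, 40837 and 58492, to genes read on MOE430A. The part of the 3′ to 5′ ratios or of proliferation in the Hdac5 difference was not tested.

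Hdac7, the class IIa member known for its role in endothelial cells and thymocytes, was detected by 1 of 2 probe sets. On MOE430A, 1420813_at read 2062, 2193 and 1706 in samples 1, 4 and 5, or 1.55, 1.64 and 1.76 times the limit. Its mean was 1987 ± 252 (SD, n = 3), the smallest spread of any detected member probe set, with a coefficient of variation of 12.7%. The second probe set, 1420812_at, read 158, 649 and 52.3 and lay below the limit in every sample. Endothelial markers had 0 of 5 detected, with Pecam1 at 227 ± 101 and Cdh5 at 355 ± 83.7 (SD, n = 3).

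Hdac4, a repressor of MEF2 in muscle and of Runx2 in growth plate cartilage, was not detected by any of 3 probe sets on MOE430B. 1447566_at read 2173, 2990.0 and 778 in samples 1, 4 and 5, or 0.504, 0.813 and 0.157 times the limit. 1454693_at read 1238, 2274 and 1434. 1436758_at read 897, 1237 and 1153. All 9 readings lay below the limit and have no order.

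Hdac9, which also gives rise to the short isoform MITR that lacks the catalytic domain, was not detected. On MOE430A, 1421306_a_at read 49.6, 27.0 and 23.2 in samples 1, 4 and 5, and 11.8% to 15.3% of the background probe sets lay below it. On MOE430B, 1434572_at read 424, 41.1 and 794, at most 0.160 times the limit. Neither probe set gives an order between samples.

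Hdac6, the tubulin deacetylase that also carries ubiquitinated proteins to aggresomes, missed the limit narrowly in every sample. Its probe set 1448928_at on MOE430A read 1272, 1179.8 and 863 in samples 1, 4 and 5, which was 0.958, 0.882 and 0.891 times the limit. Of the background probe sets 94.4%, 93.8% and 92.4% lay below it. The mean was 1105 ± 215 (SD, n = 3). With the limit at the 90th percentile Hdac6 was detected.

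Sirt1, the NAD-dependent deacetylase of histones, p53 and FoxO factors, was above the limit in sample 5 only. Its probe set 1418640_at on MOE430A read 690.4, 597 and 1492 in samples 1, 4 and 5. In sample 5 this was 1.54 times the limit, against 0.520 and 0.446 times in samples 1 and 4. Since the signals of samples 1 and 4 were below their limits, sample 5 was at least 1.12-fold higher, and no larger difference was shown.

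Just inside the limit, the lowest margins among detected members were those of Hdac5 in sample 1 and of Hdac7. Just outside it lay Hdac6, with 0 of 3 arrays above, and Sirt1 and the MOE430A probe set of Hdac2, with 1 of 3 each. No member probe set was above the limit on exactly 2 of 3 arrays.

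Detected members had ranges near those of all detected probe sets. On MOE430A 0 of 4 detected member probe sets had a range over 2-fold, against 25.8% of all detected probe sets. Their median range was 1.47-fold, against 1.59-fold over all. On MOE430B 1 of 2 did, Hdac5, against 21.1% of all detected probe sets. All 4 on MOE430A were lower in sample 5 than the mean of the other samples, by a median of -0.37 (log2), against -0.08 over all 4687 detected probe sets, of which 54.8% were lower. Hdac1 stood at -0.52, Hdac3 at -0.42, Hdac7 at -0.32 and Hdac5 at -0.14.

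Larger differences were measured in the markers of the cells. Fibroblast markers were lower in sample 5 by a median of -1.55 (log2), with 7 of 9 detected genes lower. The summed signal of all 10 was 434156, 439338 and 188323 in samples 1, 4 and 5. It adds Prrx1, read on MOE430B, to genes read on MOE430A. Col1a1 read 31161, 15904 and 7621 in samples 1, 4 and 5. The MOE430A array of sample 5 was run on fluidics station 2 and the other 5 arrays on station 1, per the file headers. On MOE430B, where all 3 arrays shared a station, Hdac2 and Hdac5 stood at 0.14 and 0.31 in sample 5. Sample 5 also read higher there in general, at a median of 0.09 over all 1123 detected probe sets. Over the 100 common probe sets its median was 0.27 on MOE430B and -0.02 on MOE430A. The part of the station or of the fibroblast markers in the difference on MOE430A was not tested. Sample 4 was the highest or next to highest in the 6 detected probe sets, with all 4 detected probe sets on MOE430A and both on MOE430B above the mean of the other samples, at medians of 0.31 and 0.45. Over all detected probe sets 2549 of 4687 on MOE430A and 593 of 1123 on MOE430B were higher in sample 4, at medians of 0.05 and 0.03. With 1 array per sample and design, none of these differences has a replicate check within a design. Hdac5 alone among the members was read by the same probe set on both designs, from the same RNA. Its sample 4 stood at 0.62 on MOE430A and 0.65 on MOE430B. Its sample 5 changed sign, from -0.14 on MOE430A to 0.31 on MOE430B.

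**Figure D3:**
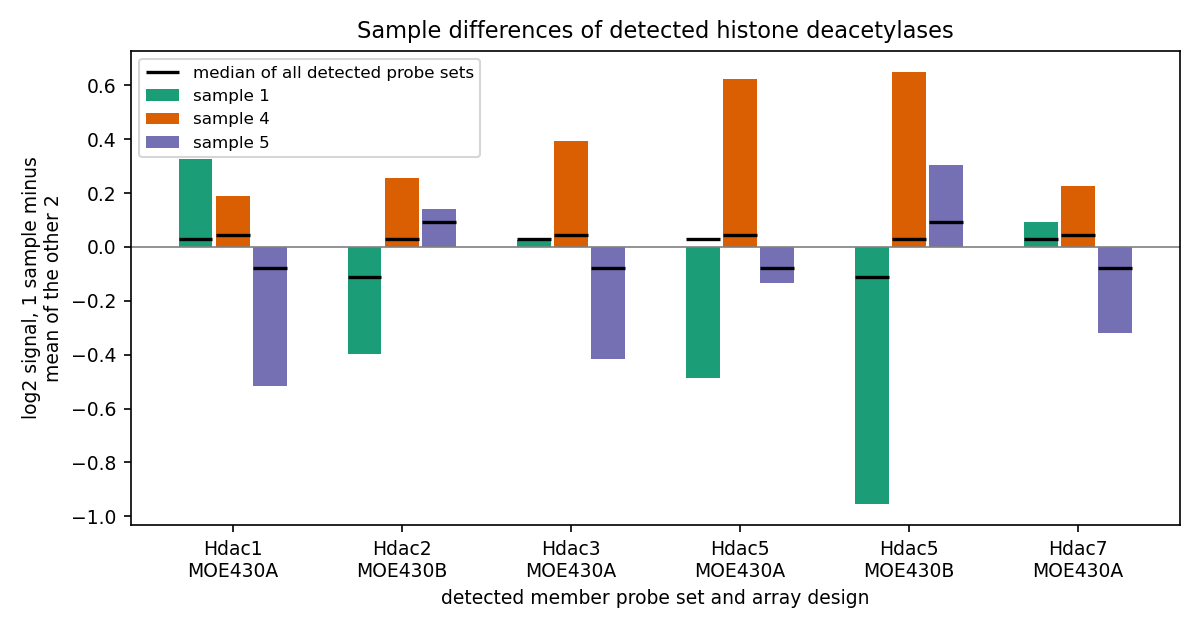
Log2 signal of 1 sample minus the mean of the other 2 (vertical axis) for the 6 detected histone deacetylase probe sets, with a bar for each of samples 1, 4 and 5 and black lines for the median of all detected probe sets of that design. The bars of sample 5 are negative in all 4 MOE430A probe sets and positive in both MOE430B probe sets, and Hdac5 is lowest in sample 1 on both designs.

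Subunits of the complexes that hold class I enzymes were detected in 16 of 33 measured genes, against 24.3% of all measured genes. That share, also given for the lists below, is not matched for the number of probe sets per gene. Of the first genes of that list, the CoREST scaffold gene Rcor1 read 2033, 1702 and 1772 in samples 1, 4 and 5, detected by 1 of its 3 probe sets. The Sin3 scaffold gene Sin3a, at 1714, 995 and 1554, missed the limit in sample 4 only. Its paralogue Sin3b was detected, at 29711 ± 7088 (SD, n = 3), by 3 of its 5 probe sets. Ncor1 had no probe set naming it alone and was not analysed here. The NuRD genes Mta2, Gatad2a, Rbbp4 and Rbbp7, the NCoR/SMRT genes Tbl1x and Tbl1xr1 and the CoREST demethylase gene Kdm1a were detected. Mta1, Mta3, Chd3, Chd4, Gatad2b, Mbd2, Mbd3 and Gps2 were not. The probe sets taken for Rcor1, Rbbp4, Rbbp7, Tbl1xr1 and Kdm1a can match several transcripts. Of the 16 detected genes 0 had a range over 2-fold, against 25.8% of all detected probe sets on MOE430A and 21.1% on MOE430B. The largest ranges were those of the MiDAC genes Mideas, at 1.84-fold, and Dnttip1, at 1.80-fold, both highest in sample 5, and of Sin3b, at 1.49-fold.

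Partners and regulators of class IIa enzymes were detected in 12 of 25 measured genes, against 24.3% of all measured genes. Many of them have several probe sets, any 1 of which was enough. Mef2a, a MEF2 factor that these enzymes repress, read 1506, 2050.4 and 1817 in samples 1, 4 and 5, from 1 of its 6 probe sets. Mef2c was not detected, at 509.6 ± 105 (SD, n = 3), and Mef2d lay above the limit in samples 4 and 5 but not in sample 1, with 3581, 5436 and 6011. The 14-3-3 genes Ywhab, Ywhae, Ywhag, Ywhah, Ywhaq and Ywhaz were detected in 6 of 6 cases. The kinase genes Prkd1, Prkd3, Camk1, Sik2 and Sik3, whose products phosphorylate class IIa enzymes or belong to kinase families that do, were also detected. The kinase genes Prkd2, Camk2d, Camk2g, Camk4, Sik1, Mark2 and Mark3 of the same list were not. Ywhag, at 3491, 2531 and 7782, had the largest range, 3.07-fold, followed by Camk1 at 2.47-fold and Prkd3 at 1.84-fold. The Ywhag and Camk1 probe sets can match several transcripts.

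Of the genes around Sirt1, 3 of 14 measured were detected, or 21.4%, against 24.3% of all measured genes. Nampt, the enzyme that limits NAD salvage, read 5796, 4846 and 6998 in samples 1, 4 and 5 on MOE430B. Ccar2, an inhibitor of Sirt1, read 2362, 1741 and 1589, and the Sirt1 substrate gene Foxo3 read 4126, 3509 and 2848, both on MOE430A. Rps19bp1, an activator of Sirt1, was above the limit in samples 4 and 5 only, with 1023, 5327 and 8189. Partners and substrates of Hdac6 were detected in 9 of 13 cases, against the same 24.3%. The substrate gene Tuba1a, from a probe set ending in _x_at, read 137224, 126081 and 69357 and the actin-binding substrate gene Cttn 71738, 44150.3 and 34570.1. Hsp90aa1, a chaperone deacetylated by Hdac6, read 9296, 15696 and 33766.5, Sqstm1, a ubiquitin-binding autophagy receptor, 6766, 9487 and 18736, and the segregase gene Vcp 14376, 27735 and 21435. Tubulin and cortactin genes were thus highest in sample 1, and Hsp90aa1 and Sqstm1 highest in sample 5.

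Of the further deacetylase genes of the family 2 of 8 were detected, against 24.3% of all measured genes. These were Hdac11, at 2359, 2334 and 1122 in samples 1, 4 and 5, and Sirt7, at 2109, 1606 and 2048. Hdac10, at 3474 ± 362 (SD, n = 3), and Sirt2, at 281 ± 128 (SD, n = 3), were not. Histone acetyltransferase genes had 7 of 17 detected, against the same 24.3%. Crebbp read 6016, 7016 and 8277 on MOE430B and Kat6a 2797, 1899 and 1650.4 on MOE430A. Ep300, at 3864, 5122 and 4568, was above the limit in sample 4 only, and Kat2a, at 1273, 1939.6 and 2295, in samples 4 and 5. Kat14 had the largest range, 2.45-fold, and Atf2 ranged 1.54-fold, both from probe sets that can match several transcripts.

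**Figure D4:**
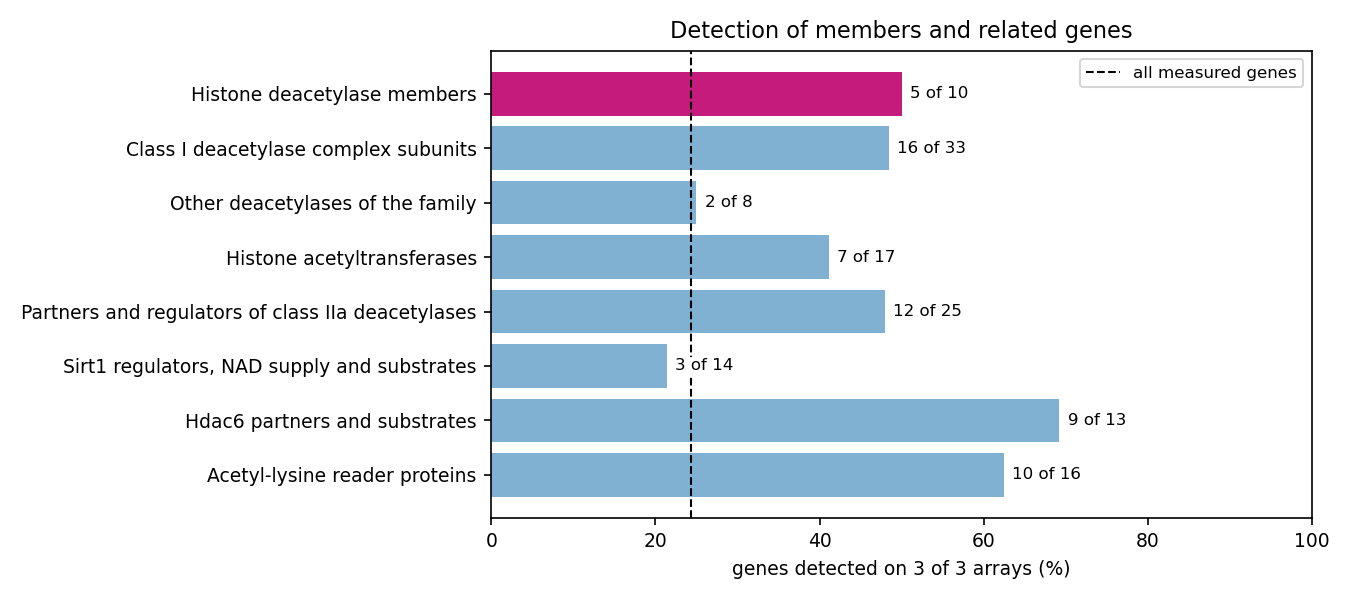
Share of measured genes detected on 3 of 3 arrays (horizontal axis, percent) for the histone deacetylase members and 7 lists of related genes, with counts beside the bars and a dashed line at the share of all measured genes, 24.3%. The members stand at 5 of 10, next to 16 of 33 subunits of class I complexes and 12 of 25 partners of class IIa enzymes. The dashed line is not matched for the number of probe sets per gene, on which detection depends.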

How the data were processed

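Gene expression was measured in 3 samples (1, 4 and 5), each on 1 MOE430A and 1 MOE430B array, with total RNA as starting material and biotin as label. Per array, the authors deposited an intensity for every probe set, made with MAS5 per the submitters' processing notes, with version and settings not given in the sources used here. Intensities are linear, and every array alone had been scaled to a trimmed mean of 1500.2 to 1500.8 (2% removed at each end), so the designs were kept apart. The summed signals of marker lists are the exception, since they add 1 probe set per gene from either design. Run settings of fluidics station and scanner were deposited per array, and only the array design and station were taken from them. The tables carry no detection calls, and 0 value columns went unused.

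Symbols came from the platform tables, updated to RefSeq (GRCm38.p6). Of 118 background genes 109 were measured. The rules were detection above the 95th percentile of background on 3 of 3 arrays, a range over 2-fold, signals of at least 1 before log2, and the log2 signal of 1 sample minus the mean of the other 2. Lists were described by counts, with no test, since there is 1 group. The number of arrays limits the precision, as do the limit and the choice of probe sets. The members and lists were chosen with earlier results of these data known. Named genes are all members, the first 3 genes of each of 7 related lists, up to 3 detected genes of each with the largest range, and the first 2 of the marker lists; those named as detected or not, without values, were chosen after their values were seen. For a gene outside the members, values are those of the detected probe set with the highest mean log2 signal (failing that, of the brightest). Alternatives covered the limit, the detection rule, probe sets matching several transcripts, pseudocounts of 16 and 64, quantile normalisation, no filter and each sample left out. Calculations used Python 3.11.15 with numpy 2.4.6 and pandas 2.3.3, and were tested on simulated data.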

Additional observations from a re-analysis of the deposited data

How the results depend on the processing

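The count of 5 detected members stood at 5 with any 1 sample left out and with detection on 2 of 3 arrays. Both choices ease the rule, so the count could not fall under them. With quantile normalisation it also stood at 5. The same held with markers of other cell types added to the background list, an alternative chosen after seeing the data. At the 90th percentile limit, where the count could only stay or rise, it was 6, with Hdac6 added. It fell to 2, Hdac1 and Hdac2, at the 99th percentile, to 3 (Hdac1, Hdac5 and Hdac7) without _s_at and _x_at probe sets, and to 3 (Hdac1, Hdac3 and Hdac5) when a gene needed most of its probe sets detected. At the 99th percentile 1 member probe set was detected on MOE430A and 1 on MOE430B, 0 on MOE430B had a range over 2-fold, and the median deviation of sample 1 on MOE430A was 0.33, against 0.06. On MOE430B 1 was detected without _s_at and _x_at probe sets, and 1, with 0 over 2-fold, with the added markers, where the limit was 6980, 11359 and 11196. The added markers include the _x_at probe set of Epcam, at 31382, 139544 and 29693 in samples 1, 4 and 5, which raises that limit. With no filter, 4 probe sets on MOE430A and 5 on MOE430B ranged over 2-fold, all but that of Hdac5 being probe sets that were not detected. With 1 sample left out, 0 to 1 did on MOE430B, with 0 without sample 1 and 0 without sample 4. The median deviation on MOE430A then ran from -0.17 to 0.28 for sample 1, from 0.17 to 0.49 for sample 4 and from -0.49 to -0.28 for sample 5. The other 71 of 85 summaries moved by less than the spread between samples or 1.5 times. So did all 36 deviations of single probe sets under a pseudocount of 64 or quantile normalisation. This is a loose measure, since for the medians the spread was 0.23 (log2). The median of sample 1 thus counts as unmoved without sample 5, though it changed sign, from 0.06 to -0.17. Some summaries, such as detection counts with a sample left out, could not fall. The cause of the changes was not tested. The MOE430B limit rests on 11 probe sets. No paired analysis was possible because there is 1 group and no contrast.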

Other observations

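Readers of acetylated lysine are bromodomain proteins that bind the marks deacetylases remove. They were detected in 10 of 16 measured genes, against 24.3% of all measured genes, a share not matched for the number of probe sets per gene. Brd2, a reader that stays on chromatin through mitosis, read 2646, 3282 and 4323 in samples 1, 4 and 5 on MOE430A. Its relative Brd3, at 6407, 3479 and 4969, was not detected, since it missed the limit of MOE430B in sample 4. The SWI/SNF genes Smarca2, Smarca4, Brd9 and Pbrm1 were detected, with Smarca2 at 2427, 2559 and 1339.7 and Pbrm1, by 3 of 3 probe sets, at 2495, 3262 and 4579. Another SWI/SNF gene of the list, Brd7, was not detected. Atad2, a bromodomain ATPase associated with DNA replication, had the largest range of the list. It read 4659.6, 14424 and 17154 on MOE430B, a range of 3.68-fold with sample 1 the lowest, and was the 1 gene of the 10 with a range over 2-fold. All 6 detected proliferation genes were also lowest in sample 1. Mki67, not detected there, read 595, 3678 and 3164 in samples 1, 4 and 5. The part of proliferation in the Atad2 difference was not tested.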
